A study of Rattus norvegicus with 24 samples.

Results

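The diet comparison in strain 13 consisted of 6 of the 24 two-colour cDNA arrays of a study of rat kidney, all 6 of which carry a title that sets strain 13 on LS against strain 13 on HS after 2 weeks. The abbreviations HS and LS stand, by what is known of this study, for a high-salt and a low-salt diet. Strain 13 is known as the SS rat, the inbred salt-sensitive (Dahl) rat, with chromosome 13 replaced by that of another strain. Both RNAs on each of these arrays came from strain 13 kidney, so the substituted chromosome is shared by the groups compared and the diet is what differs. The other 18 arrays compare HS with LS in SS rats, strain 13 with SS on LS and strain 13 with SS on HS. Of the 6 SS diet arrays, 1 has a title that begins as the strain 13 titles do, but its channel text names SS. The titles of the rest name no strain, and they were taken as SS. The tissue is kidney by the labels and renal medulla by the series title. Neither the age and sex of the rats nor the salt content of the diets is given in the labels, and pooling of animals is not described. The 6 arrays form 3 replicates, each with a forward array and an array with the dyes exchanged, and the 2 arrays of a replicate were averaged. Where 1 of the 2 had no value for a probe, the other stood alone, and 880 probes had a value on all 6. Whether the replicates were separate animals is not stated in the labels, so the spread among them may be technical. The p-values and 95% intervals rest on a spread pooled over the 12 RNA pairs of all 4 comparisons. They therefore differ from what the SD of the 3 strain 13 replicates alone would give. The array whose title gives no replicate number was taken as replicate 1, the only number left for its dye orientation. Of 1561 probes with a value on any array of the series, 1287 had a value in 2 or more strain 13 replicates and are described here, 1183 of them in 3 replicates and 104 in 2. A single gene symbol was available for 1088 of the 1287 probes, with 1 probe per gene.

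The renal medulla holds the thick ascending limbs, collecting ducts and vasa recta that set how much salt and water is excreted. Its outer part also holds the straight end of the proximal tubule, the segment that takes up filtered solutes and protein and is rich in peroxisomes, amino acid enzymes and cytochromes P450. In the SS rat a high-salt diet raises blood pressure and leads to matrix deposition and leukocyte infiltration in the kidney. The strain with the substituted chromosome is known for a much smaller pressure response, and it serves as the control with which the SS response is read.

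The deposited values are log ratios with a base that is not given in the sources used here, so no fold is given. A value above 0 is likely higher on HS. The basis is the 13 titles in the series that state their channels, all with strain 13 or HS in channel 1. Of these 13, however, 1 belongs to a diet array, and every title writes LS before HS. The other 12 of the 13 are strain arrays, and the diet change of strain 13 minus that of SS was compared with the change of the strain ratio from LS to HS. These correlated at 0.58 over 1164 probes with the signs as deposited and at -0.58 with both diet comparisons turned. A turn of all 4 comparisons at once would leave that value the same and would turn every sign below. The strain 13 arrays held between 953 and 1274 values each (median 1217.5), with an SD across probes of 0.239 to 0.315. The precision of a probe was judged from the spread of its ratios and the number of arrays, since spot intensities are not used here.

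Dye orientation was a large part of these ratios. A dye effect passed an adjusted p of 0.05 for 500 of 1282 probes (39.0%) in a limma fit over all 24 arrays. Across probes, the 2 arrays of a replicate correlated at -0.16, 0.15 and -0.04 in replicates 1, 2 and 3. Arrays with the same dye orientation but from different replicates correlated at 0.16 to 0.57. After averaging the orientations, replicates 2 and 3 correlated at 0.45 over 1210 probes, replicates 1 and 2 at 0.20 over 1223, and replicates 1 and 3 at 0.07 over 1220. Replicate 1 shared less of its pattern with the others. All these correlations describe probes on shared arrays, and probes are not independent replicates.

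**Figure D1:**
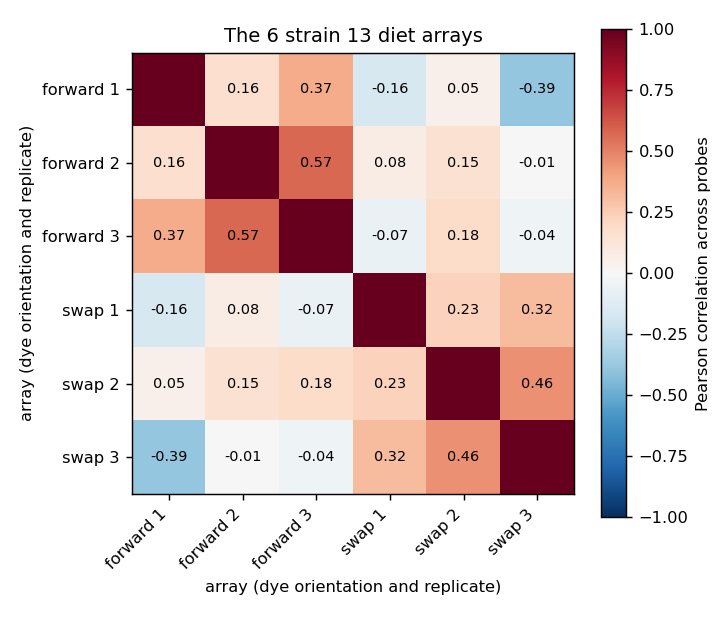
Pearson correlation across probes between each pair of the 6 strain 13 diet arrays, ordered by dye orientation (forward, then swap) and replicate number, with colour from -1 to 1. The within-orientation blocks run from 0.16 to 0.57, while the cells that join the 2 arrays of one replicate read -0.16, 0.15 and -0.04.

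The question of this comparison is which kidney transcripts change with salt intake when chromosome 13 is substituted. No probe passed the test: 0 of 1287 (0.0%) had an adjusted p below 0.05 by limma with Benjamini-Hochberg adjustment, and the lowest adjusted p was 0.324. An unadjusted p below 0.05 was found for 119 probes (9.25%), of which 62 (4.82%) lay above 0 and 57 (4.43%) below. Without replicate 2 that number was 52 of 1220. A second limma fit, to the single arrays with a dye term for every probe, called 7 probes (0.544%), 2 above and 5 below 0. In that fit the arrays of a replicate had an estimated correlation of -0.024, so they entered nearly as separate measurements. Using the forward arrays alone gave 15 calls and the dye-swap arrays alone gave 3, which were Alcam, Akt2 and Gclm. With 1 orientation a dye effect and a diet change cannot be told apart, so these cannot be read as diet calls. Alcam had -0.35, -0.11 and -0.17 on its forward arrays and 0.31, 0.70 and 0.49 on its dye-swap arrays. The number of calls thus depended on how the orientations were handled.

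The ratios themselves were small. Means above 0 were found for 693 probes (53.8%) and below 0 for 580 (45.1%), with 14 at exactly 0. Only 105 probes (8.16%) lay further than 0.3 from 0, and 20 (1.55%) further than 0.5. The median SD between replicates was 0.135, and the 95% interval of a probe had a median half-width of 0.203. The interval lay wholly within 0.5 of 0 for 1088 probes and within 0.3 of 0 for 675, which bounds the change of those probes in these samples. All 3 replicates had one sign for 373 of 1183 probes (31.5%), 186 above (15.7%) and 187 below 0 (15.8%). On single arrays, 49 of the 880 probes measured on all 6 (5.57%) had one sign throughout. The highest mean, 0.87, belonged to a probe with no gene name and rested on replicate 3, with -0.04, 0.50 and 2.15 in replicates 1, 2 and 3.

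The probes furthest below 0 were led by enzymes. Amacr, a racemase needed to degrade branched-chain fatty acids and bile acid intermediates in peroxisomes, had log ratios of -0.475, -0.96 and -0.71 in the 3 replicates. All 6 arrays were negative, from -0.42 to -1.12, and the mean was -0.72 ± 0.24 (SD, n = 3, limma adjusted p = 0.324, 95% interval -1.06 to -0.37). Akr7a3, an aldo-keto reductase that reduces toxic aldehydes, had -0.315, -0.955 and -0.92, again with 6 of 6 arrays below 0. Replicate 1 was the mildest for both genes. The mean of Akr7a3 was -0.73 ± 0.36 (SD, n = 3, limma adjusted p = 0.324), the lowest of all 1287 probes.

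Cyp2c23, the main arachidonic acid epoxygenase of rat kidney, had -1.055, -0.355 and -0.755, lowest in replicate 1, where Amacr was mildest. Its 6 arrays lay between -0.24 and -1.12 and its mean was -0.72 ± 0.35 (SD, n = 3, limma adjusted p = 0.403). Sord, which oxidises sorbitol to fructose, had the smallest SD of the 12 lower genes with the lowest p, with -0.48, -0.425 and -0.395 in the replicates and -0.30 to -0.62 on the arrays. In the fit with a dye term, Amacr (adjusted p = 0.0031), Akr7a3 (0.012), Rrad (0.015) and Cyp2c23 (0.021) were called below 0, as was 1 probe with no gene name. These limma values differ from those above because each array counts there as a measurement.

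The rest of the 12 lower genes with the lowest p had means between -0.25 and -0.45. Pros1, the anticoagulant protein S, had -0.39, -0.425 and -0.255. Rrad, a small Ras-related GTPase, had -0.22, -0.37 and -0.735. Alad and Blvra, enzymes of heme synthesis and bilirubin formation, had means of -0.25 ± 0.09 and -0.30 ± 0.17 (SD, n = 3). Dhcr7, the last enzyme of cholesterol synthesis, and Fdx1, the electron donor of mitochondrial P450 enzymes, had means of -0.43 ± 0.38 and -0.28 ± 0.08 (SD, n = 3). Some of these rest on few arrays. Pcsk1n, the precursor of an inhibitor of prohormone convertase 1, was measured in only 1 dye orientation per replicate, with -0.54, -0.18 and -0.64. Ctf1, the cytokine cardiotrophin 1, had -1.18 and 0.19 on the 2 arrays of replicate 1.

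On the other side, Spink1l, a secreted trypsin inhibitor, had the lowest p. It had 0.365, 0.34 and 0.375 in the 3 replicates, all 6 arrays above 0, and a mean of 0.36 ± 0.02 (SD, n = 3, limma adjusted p = 0.324, 95% interval 0.17 to 0.55). The replicate means agreed more closely than the arrays, which ran from 0.02 to 0.66. Ly6i and Ly6c, members of the lymphocyte antigen 6 family of surface proteins, had means of 0.35 ± 0.08 and 0.33 ± 0.17 (SD, n = 3). Spink1l (adjusted p = 0.021) and Ly6c (0.046) were the 2 probes called above 0 by limma with a dye term.

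Other genes followed among the 12 higher ones with the lowest p. Cd53, a tetraspanin of leukocytes, had 0.14, 0.29 and 0.69 from 4 arrays. Ctss, the cathepsin of antigen-presenting cells, had 0.09, 0.285 and 0.39. Ctse, an aspartic protease encoded on chromosome 13, had 0.38, 0.88 and 0.19, each from a single array. Cdk1, the kinase that drives mitosis, likewise had 1 array per replicate, with 0.10, 0.46 and 0.52.

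Pdgfa, a growth factor for mesenchymal cells, had 0.085, 0.31 and 0.315, and Mal2, a protein of membrane traffic, had 0.335, 0.60 and 0.58. Rock1, a serine and threonine protein kinase, had 0.095, 0.395 and 0.23, but its sign depended on dye, with -0.06 over the forward arrays alone. Ces2c, a carboxylesterase, and Pcm1, a protein of centriolar satellites, had means of 0.21 ± 0.10 and 0.22 ± 0.17 (SD, n = 3). Among the largest means with one sign were also Bcat1, a branched-chain transaminase, and Nr2f2, a nuclear receptor, both at 0.41. Their SDs were 0.14 and 0.15 (n = 3), and neither passed the test (limma adjusted p = 0.417 for both).

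**Figure D2:**
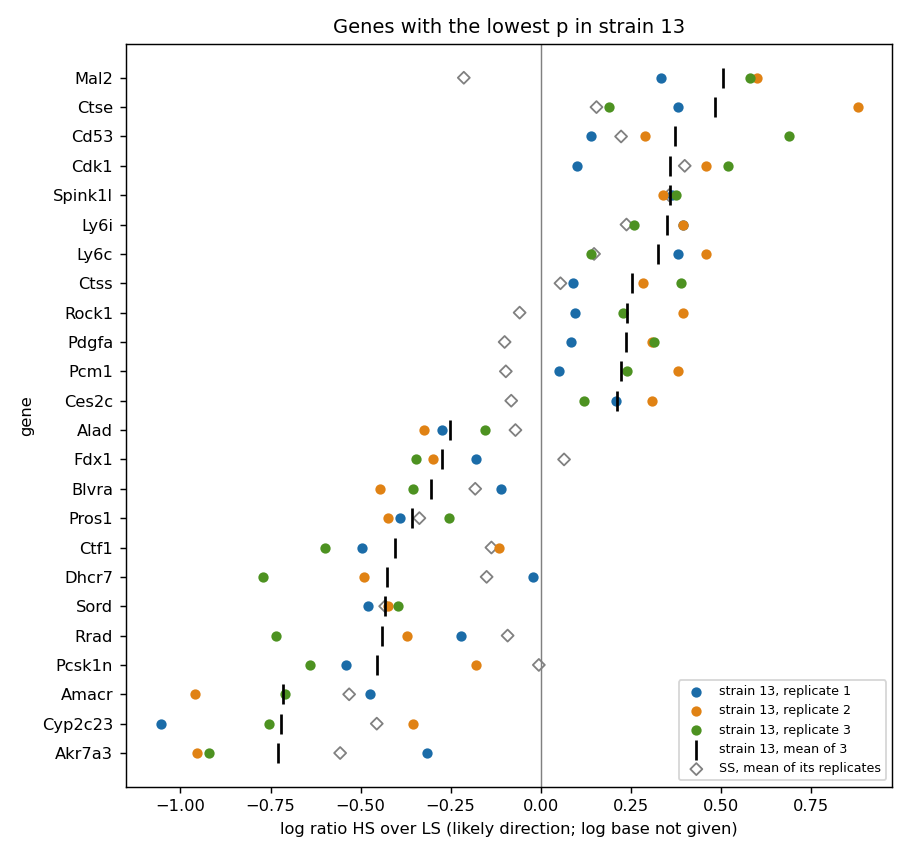
Log ratio HS over LS of the 12 genes on each side of 0 with the lowest p in strain 13. Coloured points are the 3 replicates, black ticks their mean and open diamonds the SS mean. Amacr, Akr7a3 and Cyp2c23 lie furthest left at -0.72, -0.73 and -0.72, and Spink1l shows the tightest replicates.

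The gene lists were chosen with earlier results of these data known, so their counts here and below describe them and are not a test. Genes of the proximal tubule lay below 0 more than any other list examined. Of 23 tested members, 21 had a mean below 0 and 2, Qdpr and Fbp1, lay just above it at 0.02 and 0.01, against 45.1% of all probes below 0. The median of the list was -0.33, and the medians in replicates 1, 2 and 3 were -0.11, -0.34 and -0.40. All 3 replicates were below 0 for 10 of the 21 members with 3 values, against 15.8% of all probes, and 13 of 23 lay further than 0.3 from 0, against 8.16%. At an unadjusted p below 0.05 there were 5 of 23 members below 0, against 4.43% of all probes, and 0 of 23 had an adjusted p below 0.05 by limma. The list median was -0.27 over the forward arrays and -0.28 over the dye-swap arrays. It was -0.39, -0.27 and -0.21 without replicates 1, 2 and 3.

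Gatm, the first enzyme of creatine synthesis, was the lowest member, with -0.915, -0.335 and -0.44 and all 6 arrays below 0. Slc17a1, a phosphate and urate transporter of the apical membrane, had -0.49, -0.44 and -0.735. Lrp2, the endocytic receptor megalin, had -0.285, -0.455 and -0.56. Each of these was below 0 on every array, and none passed the test (limma adjusted p = 0.418, 0.461 and 0.508). Cyp2e1, a P450 that oxidises small solvents, had a mean of -0.40 ± 0.12 and Hpd, an enzyme of tyrosine breakdown, -0.33 ± 0.32 (SD, n = 3). Replicate 1 was near 0 for several members, as for Hpd at 0.01, while replicates 2 and 3 were lower. These are bulk samples, in which fewer cells of a type and less RNA per cell cannot be told apart.

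**Figure D3:**
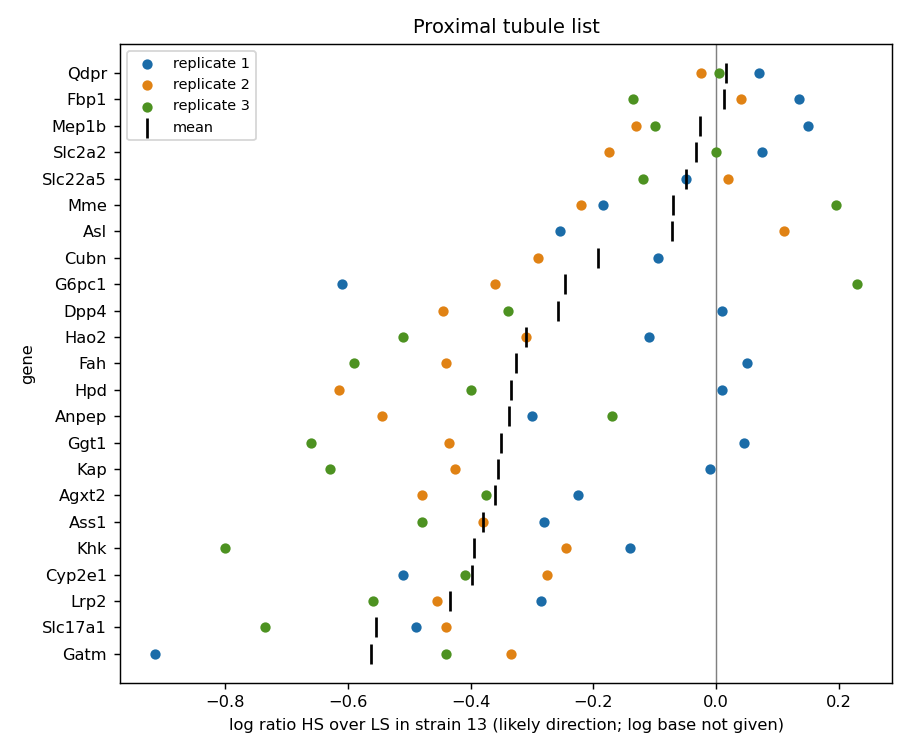
Log ratio HS over LS in strain 13 for the 23 tested genes of the proximal tubule list, with a point for each replicate and a black tick for the mean. All but Qdpr and Fbp1 have a mean below 0, and replicate 1 lies closer to 0 than replicates 2 and 3 for many genes.

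The markers used to check the tissue gave ratios, not levels, so the labelled tissue could not be checked by level. Of 16 proximal tubule markers 9 had a value in strain 13, with means from -0.56 to 0.01 and a median of -0.34. The 3 measured markers of thick ascending limb and distal tubule had means of -0.13 to -0.0017, and the 5 of collecting duct -0.17 to 0.15. Of 12 leukocyte markers only 3 had a value in strain 13, none of them on all 6 arrays, and Cd3d had none. Their means ran from -0.69 for Lyz2, a lysozyme read on 1 array, through 0.03 for Cd37 to 0.37 for Cd53, with a median of 0.03. The part of the proximal tubule share of the samples in the lower values of Amacr, Akr7a3, Cyp2c23 and the other enzymes was not tested.

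Other enzyme lists were divided. Among 9 cytochromes P450, 6 lay below 0 and 3 above (Cyp4b1, Cyp2c6v1 and Cyp2f4), with a median of -0.18. Cyp2d2, an enzyme of drug oxidation, had -0.295, -0.57 and -0.61. Of 31 genes of fatty acid and peroxisomal oxidation, 15 lay below 0, 15 above and 1 at 0, so the low value of Amacr was not shared by the list, whose median was 0.00. Acads, a short-chain acyl-CoA dehydrogenase, with a mean of -0.27 ± 0.10 (SD, n = 3), was the other member below an unadjusted p of 0.05. Of all probes, 4.43% lay below 0 at that p, and the 31 held 0 adjusted calls. Cpt1b, the mitochondrial entry step for fatty acids in muscle, had the highest mean at 0.25 but ran from -0.21 to 0.615 over the replicates.

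Redox and detoxification genes numbered 37, with 21 below 0, 16 above and a median of -0.02. At an unadjusted p below 0.05 there were 4 below (Akr7a3, Aldh2, Gclm and Gsta2) and 2 above, against 4.43% and 4.82% of all probes. Gclm, a subunit of the enzyme that starts glutathione synthesis, was at 0.02 over the forward arrays alone. The 2 above were Cp, the copper ferroxidase ceruloplasmin, with 0.125, 0.40 and 0.185, and Mt2A, a metal-binding metallothionein, with 0.105, 0.355 and 0.20. Mt2A was near 0 over the dye-swap arrays alone, at -0.0033. Of 28 solute carriers, 18 lay below 0 and 10 above. Slc17a1 and the peptide transporter Slc15a2 (-0.345 ± 0.17, SD, n = 3) were below an unadjusted p of 0.05, against 4.43% of all probes below 0 at that p.

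Matrix and leukocyte lists leaned the other way. Of 23 extracellular matrix genes, 17 lay above 0 against 53.8% of all probes, and the median was 0.11, or 0.07 without replicate 3. Col3a1, a fibrillar collagen, had 0.345, 0.20 and 0.47 with all 6 arrays above 0, and Col2a1 had 0.225, 0.26 and 0.375. Col1a1, the partner of Col3a1 in fibrils, had 0.095, 0.345 and 0.535. Lum, a small proteoglycan, had the highest mean of the list at 0.535, from 1.02 and 0.05 in the 2 replicates with a value. Col3a1, Col2a1 and Lum were the 3 members below an unadjusted p of 0.05, against 4.82% of all probes above 0 at that p, and 0 of 23 passed the adjusted test. All 3 had a called dye effect (limma adjusted p = 0.0028, 0.040 and 0.027), as did 39.0% of all probes. Col3a1 had 0.66, 0.25 and 0.81 on its forward arrays and 0.03, 0.15 and 0.13 on its dye-swap arrays. Lum was read on dye-swap arrays alone, and its mean was 0.28 in the fit with a dye term. The list median was 0.11 over the forward arrays and 0.10 over the dye-swap arrays.

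Of 18 leukocyte and complement genes, 15 lay above 0, and 10 of the 18 did so in all 3 replicates, against 15.7% of all probes. The 3 below were Cd63, Cx3cl1 and C9. The median was 0.14, with 0.08, 0.18 and 0.15 in replicates 1, 2 and 3. The 4 members below an unadjusted p of 0.05 were Cd53, the leukocyte sialoglycoprotein Spn (0.365, 0.49 and 0.04), the complement subunit C1qb (0.20, 0.55 and 0.305) and the endothelial adhesion protein Vcam1 (0.06, 0.41 and 0.245). All 4 lay above 0, as did 4.82% of all probes at that p, and 0 of the 18 passed the adjusted test.

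**Figure D4:**
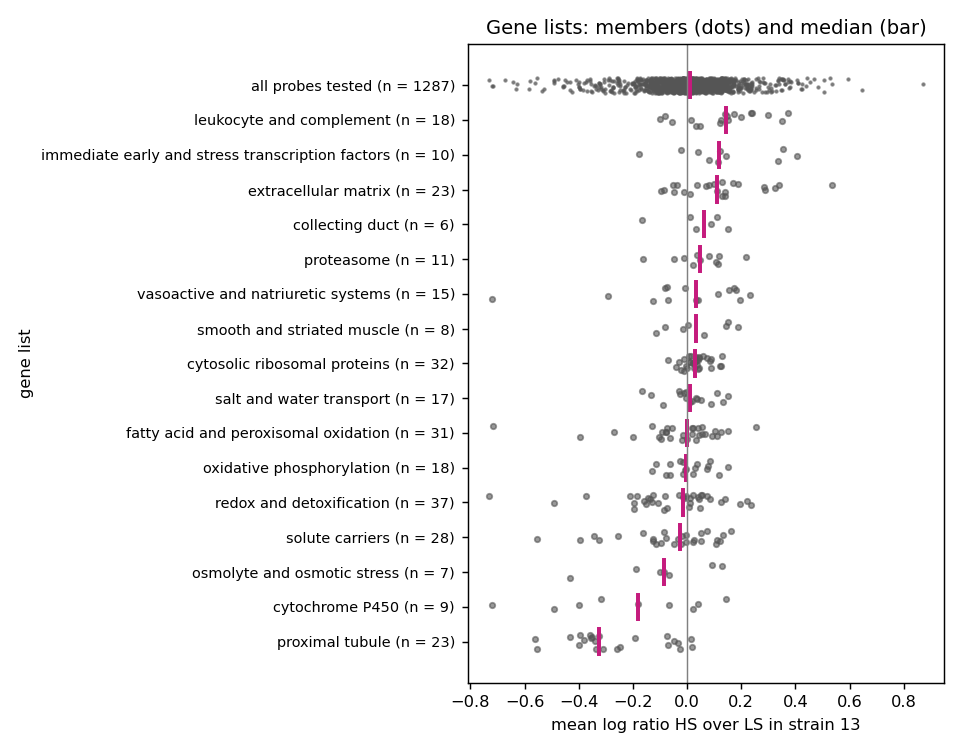
Mean log ratio HS over LS in strain 13 of every tested member (dots) of the gene lists with 5 or more tested members, and of all probes tested, with the list median as a bar. The proximal tubule median is -0.33 and the leukocyte and complement median 0.14, while the median of all probes is 0.01.

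The list of salt and water transport, which also holds steroid receptors and Umod, had means close to 0. Of 17 members, 9 lay above 0 and 8 below, none further than 0.3 from 0, and the median was 0.01. Slc12a1, the Na-K-2Cl cotransporter of the thick ascending limb, had 0.11, -0.10 and -0.02, and the 95% limits of its mean were -0.18 and 0.17. Aqp3, the basolateral water channel of the collecting duct, had 0.18, 0.155 and 0.12. It was the only member below an unadjusted p of 0.05, against 4.82% of all probes above 0 at that p. Its 3 forward arrays were 0.49, 0.32 and 0.26 and its 3 dye-swap arrays -0.13, -0.01 and -0.02, so the value came from 1 orientation. Nr3c1, the glucocorticoid receptor, had 0.095, 0.13 and 0.175 in strain 13 and a mean of -0.15 in SS, with an unadjusted limma p of 0.0077 for the difference. In strain 13 its forward arrays were -0.03, 0.03 and 0.06 and its dye-swap arrays 0.22, 0.23 and 0.29, so this value too came mostly from 1 orientation. Nr3c1 had a called dye effect (limma adjusted p = 0.031). Scnn1a, the alpha subunit of the epithelial sodium channel, had -0.22, -0.105 and -0.18. Umod, the urinary protein uromodulin, had -0.175, -0.035 and -0.185, and 0.06 over the forward arrays alone.

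Among 7 genes of osmolyte handling and osmotic stress, 5 lay below 0, and Akr1b1 and Clu above. Sord and Hspe1, a mitochondrial chaperonin, were the members below an unadjusted p of 0.05, with -0.43 ± 0.04 and -0.19 ± 0.09 (SD, n = 3). Of all probes, 4.43% lay below 0 at that p. Akr1b1, the aldose reductase that makes sorbitol, had 0.285, 0.155 and -0.055, and -0.02 over the dye-swap arrays alone. Of 15 vasoactive and natriuretic genes, 8 lay above 0 and 7 below, and Cyp2c23 was the member below an unadjusted p of 0.05. Agt, angiotensinogen, had -0.37, -0.41 and -0.10, and Adm, the vasodilator adrenomedullin, had 0.27, 0.12 and 0.07.

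Lists of general cell functions had medians near 0. Of 32 cytosolic ribosomal protein genes, 24 lay above 0, with a median of 0.03 and means from -0.07 to 0.13. The median was 0.10 over forward and -0.05 over dye-swap arrays, and 19 of the 32 had a called dye effect. Oxidative phosphorylation (18 genes) had a median of -0.005, and its forward and dye-swap arrays gave 0.16 and -0.12, so its sign followed the dye. The 11 proteasome genes had a median of 0.05, or 0.12 over forward and -0.08 over dye-swap arrays, with Psmd4, Psma1 and Psmb4 below 0. Smooth and striated muscle genes (8) had a median of 0.03, which was -0.04 without replicate 3, 0.12 without replicate 2 and 0.16 with both orientations required. Immediate early and stress transcription factors had 8 of 10 members above 0, but Cebpd, with 1.16, -0.08 and -0.07, and Egr1, with 1.04, 0.63 and -0.61, show how single replicates set the means. Egr4 and Klf6 lay below 0.

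The diet change of strain 13 was set against that of SS, measured on its own 6 arrays. The SS test called 37 of 1310 probes (2.82%) by limma, and 255 (19.5%) were below an unadjusted p of 0.05. The difference between the strains was tested directly, and 0 of 1249 probes (0.0%) passed an adjusted p of 0.05 by limma, with a lowest adjusted p of 0.308. The unadjusted p was below 0.05 for 105 (8.41%), and the fit with a dye term called 8. These 8 were Dnase1, Acsl1 and Pcsk6 above SS, and Clu, Timp1, Mmp2, Csnk2b and 1 unnamed probe below. The SD of the means over probes was 0.163 in strain 13 and 0.197 in SS. The strain means correlated at 0.38 over 1278 probes, and the strains have separate LS samples by their titles.

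**Figure D5:**
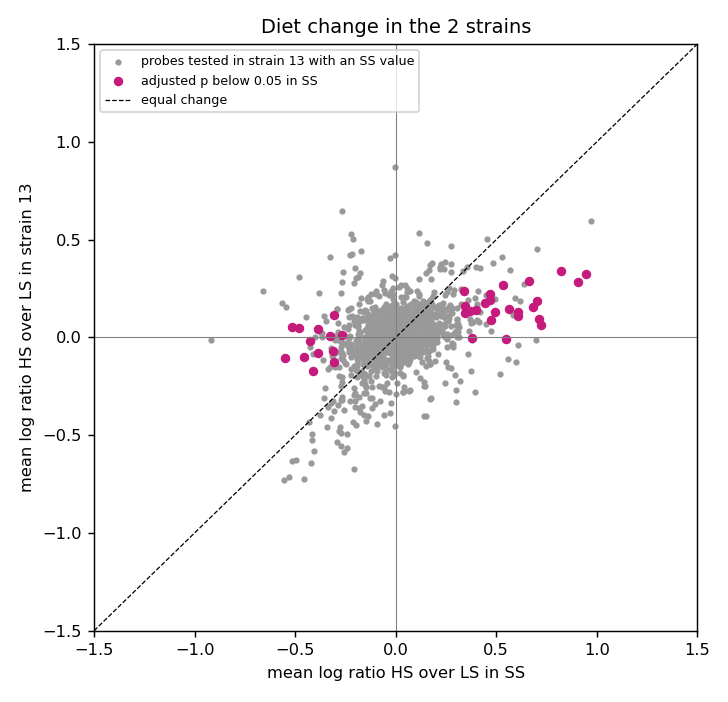
Mean log ratio HS over LS in strain 13 (vertical axis) against SS (horizontal axis) for each probe tested in strain 13 with an SS value, with the 37 probes called in SS in magenta and a dashed line of equal change. Most magenta points on the right lie above 0 in strain 13 but below the line.

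The 37 probes called in SS were all tested in strain 13. Of the 24 higher on HS in SS, 22 had a mean above 0 in strain 13, with a median of 0.15 against 0.54 in SS, which is where they were chosen. Of the 13 lower in SS, 7 had a mean below 0 in strain 13, with a median of -0.02 against -0.39. At an unadjusted p below 0.05 in strain 13 there were 5 of the 37 (13.5%, against 9.25% of all probes): Cp, Col3a1, Col2a1, Mt2A and 1 probe with no gene name. In the other direction, 117 of the strain 13 probes below an unadjusted p of 0.05 had an SS value. They were chosen for their strain 13 values, which also enter the difference. The sign was shared for 87 of them, against 784 of 1258 probes (62.3%) with a mean other than 0 in both strains. Of the 117, 29 were also below 0.05 in SS with the same sign, where 19.5% of all probes were below 0.05 with either sign, and 24 were below 0.05 for the difference, against 8.41% of all probes.

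The matrix list held many of the differences, but its members were chosen with earlier results of these data known. Col1a1, Col3a1, Col2a1 and Timp1 were among the probes called in SS, and their SS values enter the difference. The counts that follow therefore describe the list and do not test it. Of its 23 members, 11 had an unadjusted p below 0.05 for strain 13 minus SS, against 8.41% of all probes. Of these, 10 were lower in strain 13 and 1, the laminin subunit Lamb2, was higher, with 0.17 in strain 13 and -0.18 in SS. In the list the median was 0.11 in strain 13 and 0.28 in SS. Timp1, the inhibitor of matrix metalloproteinases, had 0.095, 0.41 and 0.345 in strain 13 and 0.605, 1.065 and 1.05 in SS. It was named for its low p for the difference between the strains. The difference was -0.62 (95% interval -1.05 to -0.20, limma adjusted p = 0.308). Col1a1 was 0.32 ± 0.22 in strain 13 and 0.95 ± 0.43 in SS (SD, n = 3). For the proximal tubule list the median was -0.33 in strain 13 and -0.16 in SS, where 20 of 23 members also lay below 0. For the difference, 0 of 23 members were below an unadjusted limma p of 0.05. Lrp2 and Gatm were above 0 in SS replicate 1 alone, with 0.415, -0.46 and -0.595 and with 0.30, -0.39 and -0.635. The SS means of Amacr, Akr7a3, Cyp2c23 and Sord were -0.53, -0.56, -0.455 and -0.43. Among the 12 lower genes with the lowest p, Fdx1 was above 0 in SS, at 0.065. The 8 muscle genes were all above 0 in SS, with a median of 0.30, and 5 of 8 were above 0 in strain 13. Myl3, Actc1 and Acta2 were below.

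Some genes had opposite signs in the strains. Nr2f2 had 0.36, 0.58 and 0.29 in strain 13 and -0.205, -0.065 and -0.71 in SS, a difference of 0.74 (95% interval 0.28 to 1.19). Mal2, by its mean of 0.51, and Pdgfa, at 0.24, were also above 0 in strain 13 and below 0 in SS, at -0.21 and -0.10. Replicate 2 of Nr2f2 and Mal2 was a dye-swap array alone, and both had a called dye effect (limma adjusted p = 0.022 and 0.011). Their strain 13 means in the fit with a dye term were 0.34 and 0.43. Pcsk6, a proprotein convertase, had the lowest p of all for the difference, from 0.12 in strain 13 and -0.31 in SS. On the lower side, Scarb1, a receptor for high-density lipoprotein, had -0.17 in strain 13 and 0.37 in SS. Unc119, a carrier of lipidated proteins, had -0.21 in strain 13 and 0.12 in SS, and Arl2, a small GTPase of microtubule assembly, had -0.28 in strain 13 and 0.39 in SS. Cript and Aqp3 were above 0 in strain 13, at 0.13 and 0.15, and below 0 in SS, and Pcsk1n was lower by 0.45. The limma adjusted p for the difference was 0.308 to 0.309 for the genes with opposite signs named above.

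Chromosome 13 is the substituted chromosome. Of its 29 tested probes, 5 (17.2%) were below an unadjusted p of 0.05, against 96 of 1056 (9.09%) on other chromosomes. The 5 were Ctse, Rassf5 and Rnpep above 0, and Kmo, a kynurenine hydroxylase, and Glul, glutamine synthetase, below. Kmo had -0.51, -0.63 and -0.24 and Glul -0.20, -0.265 and -0.375. None passed the adjusted test. The median of the 29 probes was 0.02, against 0.01 elsewhere.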

How the data were processed

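The authors deposited 1 table of log ratios for 24 two-colour arrays, a signed unit with no stated log base. How background, spot filters and normalization were handled is not given in the sources used here. Array means lay within 0.0049 of 0, and the deposited values were used unchanged. The dye of each channel is per the labels. Probes were named from the platform annotation, updated with the RefSeq table of assembly GRCr8: of 1561 probes with a value, 1311 had an updated symbol, 5 a platform symbol only, 22 several and 223 none.

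Averaging the forward and dye-swap array of each replicate left 12 RNA pairs. These were fitted as independent, although the strain arrays may share RNA with the diet arrays. limma 3.58.1 in R 4.3.3 fitted 4 group means (lmFit, eBayes), each tested two-sided with Benjamini-Hochberg adjustment over all probes tested. The design had assumed log base 2, so the test is unchanged and folds are not given. The fit was tested on simulated data. Named genes were, among single-sign genes with 3 values, the 12 of lowest p and the 5 largest on each side and the 5 of lowest p for strain 13 minus SS in each direction, and in each list the 4 of lowest p, the lowest and the highest. Other genes named (Lrp2, the genes of chromosome 13 and of the dye-term calls, and members of small counts) were chosen after their values were seen. The members and lists were chosen with earlier results of these data known. Same-numbered deviations from the group means correlated at 0.13 to 0.20 between the strain 13 and SS diet comparisons, all 3 over 0.1, so these numbers were taken as pairing them. The labels give no reason for the pairing. Over all the other comparisons, strain 13 replicates correlated best with their own number in 4 of 9 cases. None of the 3 same-numbered values was over 0.1 with either strain comparison, and with the LS one they were -0.23, -0.30 and 0.039. Strain 13 on LS enters the diet ratio and the LS strain ratio with opposite signs, so RNA shared there would give negative values. A limit of over 0.1 thus cannot show whether RNA was shared with the LS strain arrays, and this was not tested.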

Additional observations from a re-analysis of the deposited data

Results flagged for a closer look

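Among 118 sets of single-array values examined for strain 13, in 3 the highest array stood apart from the rest by Dixon's criterion, which chance meets in about 1 set in 20. Slc27a2, a fatty acid transporter of the proximal tubule, had 0.01 on its highest array, with -0.38 next. Cyp2d2 had 0 on its highest array, with -0.57 next. Kmo, the kynurenine hydroxylase on chromosome 13, had 0.04 on the highest of its 5 arrays, with -0.51 next.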

How the results depend on the processing

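By limma 0 probes passed an adjusted p of 0.05 in strain 13 under the alternatives run, with 3 exceptions. These were the dye term per probe (7 calls), the forward arrays alone (15) and the dye-swap arrays alone (3). In fits of 1 orientation, dye and diet cannot be told apart. For strain 13 minus SS the dye term gave 8 calls and the other alternatives 0. The number of probes below an unadjusted p of 0.05 was 232 over forward arrays, 203 over dye-swap arrays and 52 to 158 when 1 replicate or the array without a number was left out, against 119. The replicate block, which treats same-numbered samples as paired, gave 114 such probes and 0 adjusted calls. For strain 13 minus SS, where the numbers were taken as pairing the samples, it gave 112 probes below an unadjusted p of 0.05. It gave 0 adjusted calls there, against 105 and 0 without the block. A replicate block on the diet arrays alone gave 132 and 0, and the diet arrays alone with no block 100 and 0, both chosen after seeing the data. The block changed no other call. Same-numbered deviations of strain 13 correlated at -0.30 to 0.039 with the LS strain comparison and at -0.065 to 0.0096 with the HS strain comparison.

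List medians moved mostly with dye orientation. Over forward arrays they were 0.06 for salt and water transport, -0.047 for vasoactive systems, 0.045 for fatty acid oxidation, 0.16 for oxidative phosphorylation, 0.10 for ribosomal proteins, 0.12 for the proteasome, -0.27 for P450, 0.027 for solute carriers and 0.12 for collecting duct. Over dye-swap arrays the same lists had -0.053, -0.085, -0.053, -0.12, -0.052, -0.077, -0.06, -0.10 and -0.053, and leukocyte and complement 0.092. With both orientations required, vasoactive systems had -0.083. Leaving out 1 replicate, or the array without a number, gave -0.047 to 0.028 for transport, -0.035 to 0.018 for vasoactive systems, -0.045 to -0.0088 for fatty acid oxidation, -0.07 to 0.0037 for redox, 0.005 to 0.034 for ribosomal proteins, -0.0033 to 0.09 for the proteasome and -0.077 to -0.026 for solute carriers. For muscle the range was -0.043 to 0.12. The causes were not tested.

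Of the 24 genes with the lowest p on either side of 0, 1 changed sign under an alternative, and of all 126 genes examined 43 did. Over forward arrays the turned means were Rock1 -0.063, Umod 0.06, Isyna1 0.057, Cd63 0.063, Rps15 0.15, Pvalb -0.15, Slc12a1 0.017, Egf 0.12, Slc4a1 -0.21, Fabp4 -0.017, Wt1 -0.14, Klf10 -0.02, Gclm 0.017, Alcam -0.21, Psma1 0.087, C9 0.10, Cyp2c6v1 -0.12, Cyp2f4 -0.02, Psmb4 0.13 and Fbp1 -0.027. Over dye-swap arrays they were Aqp3 -0.053, Agrn 0.11, Impa1 0.04, Akr1b1 -0.017, Qdpr -0.0033, Cox6c -0.18, Mt2A -0.0033, Rps23 -0.03, Psmc5 -0.06, Psma2 -0.16, Cyp4b1 -0.053, Actc1 0.093, Hba-a1 0.17, Cebpd -0.20, Dnase1 -0.087, Klf6 0.097, Acta2 0.19 and Mmp2 0.0033. The dye term gave Lpl 0.032 and C9 0.020, the replicate block Hbb-b1 -0.07, centring on the median Egf 0.0017, equal spread Mmp2 0.0019 and requiring both orientations C9 0.083. With 1 replicate, or the array without a number, left out the ranges were Ptgds -0.015 to 0.37, Qdpr -0.01 to 0.037, Pvalb -0.013 to 0.19, Slc12a1 -0.073 to 0.045, Egf -0.062 to 0.03, Slc4a1 -0.025 to 0.27, Fabp4 -0.10 to 0.12, Hba-a1 -0.092 to 0.08, Wt1 -0.02 to 0.24, Cebpd -0.075 to 0.55, Clu -0.02 to 0.23, C9 -0.18 to 0.083, Csnk2b -0.03 to 0.25, Dnase1 -0.11 to 0.19, Cyp2c6v1 -0.035 to 0.11, Klf6 -0.092 to 0.092, Acta2 -0.098 to 0.062, Cyp2f4 -0.04 to 0.10, Psmb4 -0.045 to 0.01, Fbp1 -0.062 to 0.087 and Mmp2 -0.083 to 0.10. These genes were mostly close to 0 in all data, and 3 replicates limit what can be resolved.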
